A study of Irpex lacteus with 14 samples.

Results

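Growth on wheat straw was compared with growth on maltose in Irpex lacteus, a white-rot fungus that grows on dead wood and belongs to the Polyporales. The comparison covered 967 of the 977 different genes in the deposited table. These were the genes that reached 10 normalized counts (3.32 on the log2 scale) on at least 2 of the 5 substrates of the series. For each gene, the maltose value was subtracted from the straw value. Each value stood for 3 libraries, so 6 of the series' 14 libraries lay behind the comparison.

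All cultures were of strain CCBAS Fr. 238 617/93 and were shaken for 3 days at 30 °C in 100 ml of the same mineral medium with yeast extract. The control cultures were given maltose at 20 g per litre and no solid. The straw cultures were given 15 g per litre of ground straw, sieved under 2 mm, with maltose lowered to 2.5 g per litre. An effect of the straw and an effect of the lower sugar cannot be told apart here. The other groups, used only for side-by-side levels, were cellulose (3 libraries), aspen (3) and pine (2), each with the same load of solid. Pine was sieved like the straw, and aspen was milled to 1 mm. Their sugar matched the straw medium on cellulose and pine, and is not legible in the label for aspen.

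White-rot fungi secrete enzymes that break down cellulose, hemicelluloses and lignin, and take up the sugars released. Wheat straw is the stem of a grass, in which cellulose fibres are embedded in arabinoxylan and a lignin that is cross-linked through ferulic acid. Maltose is a soluble glucose disaccharide that needs only a glucosidase before it enters glycolysis. In many fungi, genes for wall-degrading enzymes are kept low by readily used sugars and turned on by small sugars released from the polymers. The genes are known here by ID number only. No member could be assigned an enzyme family or function, and the lists drawn up for cellulases, xylanases, peroxidases, laccases, transporters and other groups were left unfilled.

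Among the genes of the table, wheat straw went with a broad rearrangement of transcript levels, with a long tail of genes far higher than on maltose. Of the 967 genes, 237 (24.5%) were at least 2-fold higher on straw and 192 (19.9%) at least 2-fold lower. Together these were 429 genes (44.4%), and the other 538 lay within 2-fold. No spread between libraries accompanied the values, so these are differences of size, with no test and no error. The straw and maltose levels had Spearman's rho = 0.77 across genes, which are not independent replicates.

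The quartiles of the differences were -0.74 and 0.96 on the log2 scale, and their median was 0.09. At the outer ends, the 5th percentile was -2.03 and the 95th was 3.95, so the upper tail reached farther than the lower one. The most extreme values were 12.21 above and 5.62 below the maltose level.

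**Figure D1:**
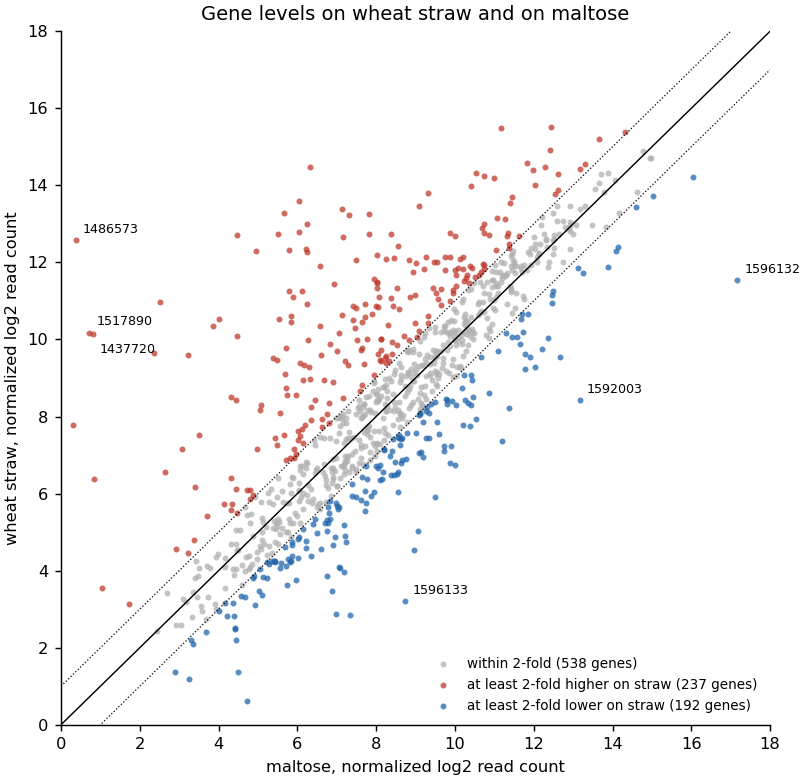
Normalized log2 read count of each of the 967 genes on wheat straw (vertical axis) against maltose (horizontal axis). Each point is 1 gene, the solid line marks equal levels, the dotted lines mark 2-fold, and the ID numbers name the 3 largest differences in each direction. Those of the 237 higher genes that stand furthest above the line lie at low maltose levels. The 192 lower genes reach less far from it.

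The predominance of higher genes grew with the size of the difference. Between 2-fold and 4-fold, lower genes were the more numerous, with 140 against 104 higher. At 4-fold or more, 133 genes (13.8%) were higher and 52 (5.38%) lower. At 8-fold or more there were 79 higher genes (8.17%) and 18 lower (1.86%), and at 32-fold or more 30 (3.1%) and 2 (0.207%). The 2 genes lower by 32-fold or more were 1596132 and 1596133, whose ID numbers follow each other.

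The balance at 2-fold depended on how the columns were scaled, and the majority among larger differences kept its direction. The straw column's median was 8.61 and that of maltose 8.22. Centring both columns on a common median moved every difference by -0.39 and gave 174 higher and 279 lower genes. Quantile normalization gave 181 and 236, and scaling both columns to equal sums gave 173 and 284. At 8-fold or more, higher genes were the more numerous under each of these scalings, with 64 against 24 after centring, 59 against 21 after quantile normalization and 64 against 24 with equal sums. At 4-fold they were also the majority, at 110 against 86, 105 against 77, and 110 against 89.

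**Figure D2:**
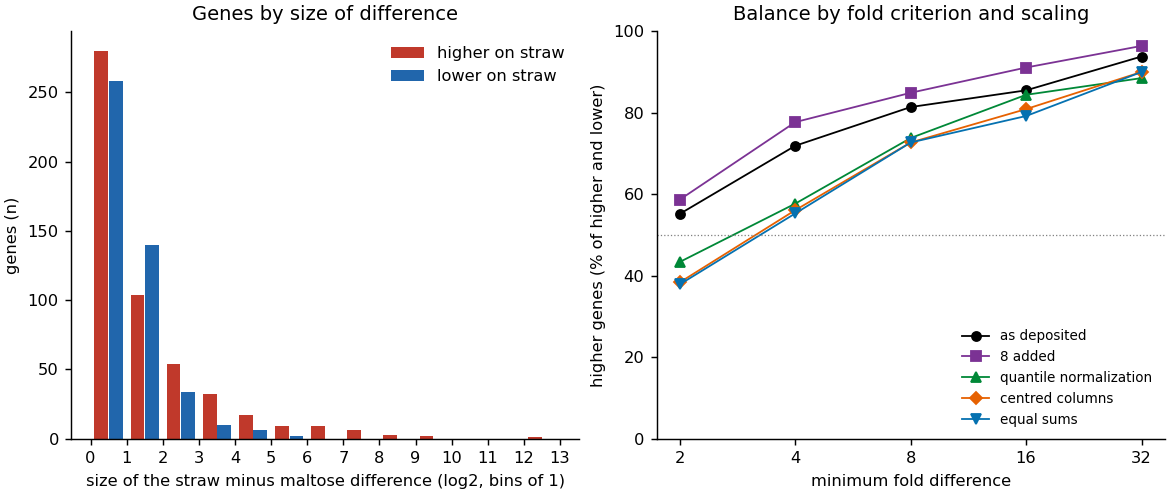
Left, the number of genes (vertical axis) in each bin of the size of the straw minus maltose difference on the log2 scale (horizontal axis), for higher and lower genes. Right, higher genes as a percentage of higher and lower genes together, at minimum differences of 2-fold to 32-fold, for the deposited values and 4 other treatments of them. Every line rises, from 55.2% at 2-fold to 93.8% at 32-fold on the deposited values and from 37.9% to 90% with equal sums.

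The gene with the largest difference was 1486573, at 0.37 on maltose and 12.58 on straw. It moved from the last but one place among the 967 genes (rank 966) to rank 88. Its level was 10.02 on cellulose, 7.11 on aspen and 7.45 on pine, so straw held the highest value by 2.56 over cellulose. The maltose value is close to 1 normalized count, and with 8 added to the linear values the difference of 12.21 came to 9.36.

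Genes 1517890, 1437720 and 1598955 were likewise near the bottom of the table on maltose. Gene 1517890 stood at 0.72 on maltose and 10.18 on straw, with 6.43 on cellulose, 8.01 on aspen and 9.47 on pine. Gene 1437720 stood at 0.80 on maltose, 10.13 on straw and 10.09 on cellulose, with 8.58 on aspen and 6.53 on pine. Gene 1598955 had the lowest maltose value of all, 0.30, against 7.79 on straw and 7.99 on cellulose. On cellulose, then, the last 2 genes were about as high as on straw, whereas the first was far lower there. With 8 added, the differences of 9.46, 9.33 and 7.49 came to 6.92, 6.86 and 4.64.

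The remaining genes of the 10 largest positive differences had maltose values between 2.52 and 6.31. Gene 1582264 reached the highest straw level of the 10, at 14.48 against 6.31 on maltose. It was 289-fold higher and moved from rank 724 to rank 11. Gene 1578898 was 306-fold higher, at 12.72 against 4.46, and gene 1597012 was at 10.97 against 2.52, a difference of 8.45 (7.20 with 8 added). These 3 genes were also far above maltose on pine, at 13.79, 12.06 and 11.05. The same held on cellulose (12.92, 10.22 and 9.24) and on aspen (12.69, 10.71 and 10.47).

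Gene 982829 was 199-fold higher on straw (13.28 against 5.65), gene 1478032 was 189-fold higher (13.60 against 6.04) and gene 1162429 was 161-fold higher (12.28 against 4.96). Their cellulose levels lay between the maltose and straw levels, at 11.28, 12.76 and 9.32. So did their levels on pine (9.29, 12.38 and 10.62) and on aspen (9.94, 11.96 and 10.08). Of the 10 genes, straw held the highest of the 5 values for 8. The exceptions were 1598955, highest on cellulose, and 1597012, highest on pine. Maltose held the lowest value for all 10. The straw and the maltose values both enter the difference that chose these genes, so neither place is a separate observation.

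**Figure D3:**
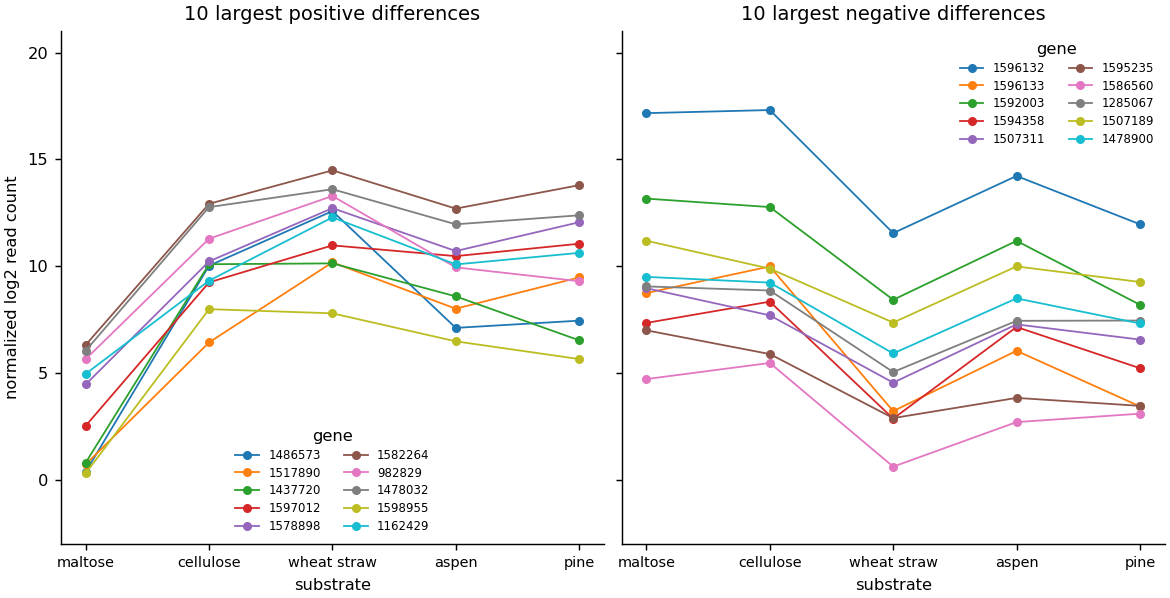
Normalized log2 read count (vertical axis) on the 5 substrates (horizontal axis) for the 10 genes furthest above and the 10 furthest below their maltose level on straw. Each line joins the 5 values of 1 gene and only guides the eye. Straw holds the highest value for 8 of the 10 genes on the left and the lowest for 9 of the 10 on the right. The straw and maltose values chose the genes, so these places are in part built in.

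With 8 added to the linear values, which weakens differences that rest on low values, the 5 leading genes were 1486573, 1582264, 1578898, 982829 and 1478032. Their differences were then 9.36, 8.04, 7.81, 7.42 and 7.39. Apart from 1486573, these genes were at 4.46 to 6.31 on maltose.

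Some genes crossed the level of 10 normalized counts between the media. On maltose, 23 of the 967 genes were under it, and on straw 32 were. Of the genes under it on maltose, 14 were at or above it on straw, with straw values from 3.43 to 12.58 and a median of 7.48. Of these, 8 reached 100 normalized counts on straw, and 11 were at least 4-fold higher. In the other direction, 23 genes were at or above 10 on maltose and under it on straw. Those genes were weak to begin with: their median on maltose was 4.22, only 3 had reached 100 normalized counts there, and 6 were at least 4-fold lower. Over all genes, 13.8% were at least 4-fold higher and 5.38% at least 4-fold lower. Both sets were chosen by the straw and maltose values, so large differences in them are in part built in. As a description on the deposited scaling, more genes were under 10 on one medium and past 100 on the other in the direction of straw (8) than of maltose (3).

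The largest negative difference was that of gene 1596132, at 17.16 on maltose and 11.55 on straw. Its share of the sum of all linear values was 9.76% on maltose and 0.149% on straw, and it moved from rank 1 to rank 178. Its levels were 17.31 on cellulose, 14.22 on aspen and 11.96 on pine. The straw minus cellulose difference was -5.76.

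Gene 1596133 was next, at 8.74 on maltose and 3.21 on straw, with 9.98 on cellulose, 6.04 on aspen and 3.43 on pine. The difference of -5.53 rests on a straw value under 10 normalized counts and came to -4.66 with 8 added. For gene 1592003 the straw value of 8.42 lay 26.7-fold under the maltose value of 13.16, with 12.77 on cellulose, 11.18 on aspen and 8.19 on pine. All 3 genes were near their maltose level or above it on cellulose, lower on aspen, and lowest on straw and pine.

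Gene 1594358 was at 7.34 on maltose, 8.34 on cellulose, 7.15 on aspen and 5.22 on pine, and at 2.86 on straw. Gene 1595235 was at 6.99 on maltose, 5.88 on cellulose and 2.88 on straw. Gene 1586560 had the lowest straw value of all, 0.61, against 4.71 on maltose. Differences of these 3 genes, at -4.48, -4.11 and -4.10, came to -3.48, -3.14 and -1.84 with 8 added, so that the last shrank most.

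The other 4 of the 10 genes, like 1596132 and 1592003, stayed above 10 normalized counts on straw. Gene 1507311 was at 4.54 on straw and 8.97 on maltose (21.4-fold lower), and gene 1285067 at 5.04 and 9.05 (16.1-fold). For gene 1507189 the values were 7.36 and 11.19 (14.2-fold), and for gene 1478900 they were 5.91 and 9.50 (12.0-fold). Each was also lower on pine than on maltose, at 6.56, 7.45, 9.26 and 7.31. The same held on cellulose (7.69, 8.86, 9.88 and 9.23) and on aspen (7.27, 7.44, 9.99 and 8.49). In each gene the straw value was the lowest of the 5. Among the 10 genes, maltose held the highest value for 6 and cellulose for 4, with the maltose value again part of the choice. Over all 967 genes, maltose was highest for 18.4% and cellulose for 13.8%.

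The most abundant genes of the table changed places. The 10 most abundant genes of maltose and of straw had 4 members in common, the 50 most abundant 25, and the 100 most abundant 62. Normalized counts are not corrected for gene length, so these ranks order read numbers and not molecules. The table also may not represent the whole genome, so a share is a share of its 967 genes.

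Of the 10 most abundant genes on maltose, 4 were at least 2-fold lower on straw and 1 was at least 2-fold higher, where 19.9% and 24.5% of all genes were. They were chosen by the maltose value that enters the difference, so the counts are a description. With quantile normalization, centred columns or equal sums the counts were 6 lower and 0 higher. Beside 1596132, the lower ones were 1464673 (16.04 on maltose, 14.21 on straw), 1592555 (15.02 and 13.72) and 1580582 (14.59 and 13.43). Gene 1464673 held 4.48% of the maltose sum and 0.946% of the straw sum. Genes 1287858 (14.63 and 13.82) and 1589506 (14.17 and 13.27) lay within 2-fold as deposited and past it under those 3 scalings. The one higher gene was 1288154, at 14.31 on maltose and 15.39 on straw, which was among the 10 most abundant on both and lay within 2-fold under those scalings.

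The 10 leading genes on straw had ranks between 4 and 139 on maltose. Gene 1496858 ranked first, at 15.51 against 12.45 on maltose, and was 8.35-fold higher. Gene 1005965 followed at 15.50 against 11.16, was 20.2-fold higher, and came from rank 139. Both were near their maltose level on cellulose (12.78 and 11.15), in between on aspen (13.30 and 13.36), and close to the straw level on pine (15.29 and 15.21).

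Of the 10 most abundant genes on straw, 7 were at least 2-fold higher there than on maltose and 0 at least 2-fold lower, against 24.5% and 19.9% of all genes. The straw value that ranks them also enters the difference, so this too is a description. Under each of the same 3 scalings 5 were higher and 0 lower, with 1436095 and 1288154 within 2-fold. Genes 1537763 (14.92 against 12.40) and 1587934 (14.57 against 11.82) were 5.73-fold and 6.71-fold higher. The others past 2-fold were 1288940 (15.20 against 13.65), 1436095 (14.54 against 13.30) and 1288154, already described. Gene 1537763 was at 11.40 on aspen, below its maltose level.

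Genes 1662115, 1586977 and 1283249 were among the 10 most abundant on both substrates with little difference. Their maltose values were 14.78, 14.97 and 14.95, and their straw values 14.89, 14.71 and 14.70. Among the 50 most abundant genes, the smallest differences belonged to 1587967 (12.86 on both), 241859 (12.90 on both) and 1583055 (13.80 on maltose and 13.83 on straw). That equality holds for the deposited scaling only, since equal sums move every difference by -0.41.

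**Figure D4:**
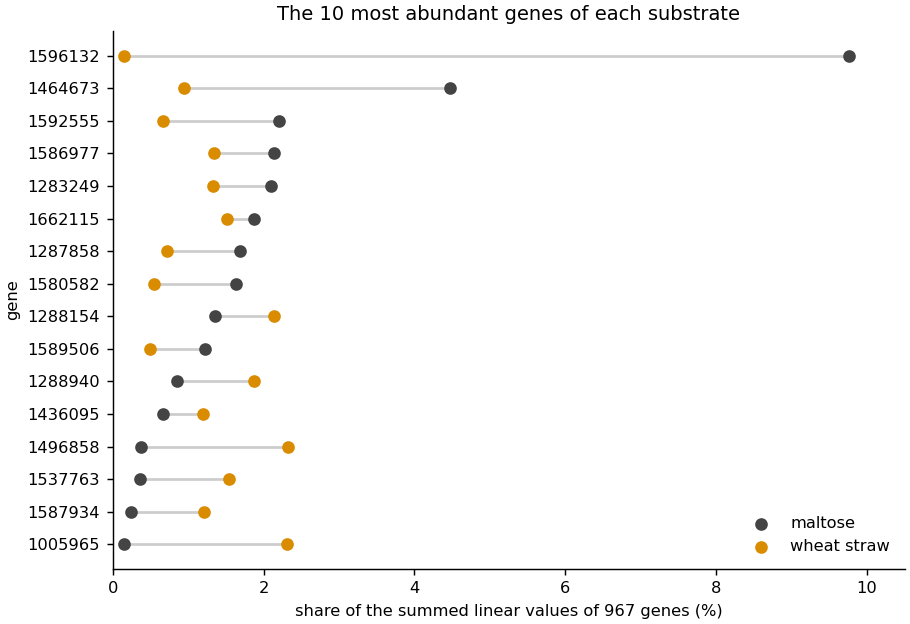
Share of the summed linear values of the 967 genes (horizontal axis, in percent) on maltose and on wheat straw for the 16 genes that are among the 10 most abundant on either substrate (vertical axis). Each pair of points is 1 gene. Gene 1596132 goes from 9.76% to 0.149%, and genes 1496858 and 1005965 lead on straw at 2.33% and 2.31%.

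The sums were less concentrated on straw. Gene 1596132 alone held 9.76% on maltose, and the leading gene on straw held 2.33%. The 50 most abundant genes held 54.2% on maltose and 46.1% on straw. As a group, the 237 higher genes held 13.7% of the maltose sum and 51.4% of the straw sum, and the 192 lower genes 32.4% and 5.43%. Since these genes were chosen by the same values, the 2 shares describe the size of the change and support nothing further. In the columns that did not choose them, the higher genes held 21.6% of the sum on cellulose, 30.0% on aspen and 37.8% on pine. The lower genes held 29.9%, 15.7% and 9.13%. On cellulose both shares thus lay nearer to those of maltose.

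Levels on the other substrates placed the straw values further. All comparisons with maltose share its value, so levels are given here and no overlap between lists. The median level of the 237 higher genes was 7.71 on maltose, 9.0 on cellulose, 9.33 on aspen, 10.10 on pine and 10.79 on straw. For the 192 lower genes it was 8.18 on maltose, 7.89 on cellulose, 7.66 on aspen, 7.35 on pine and 6.45 on straw. In both groups cellulose was nearest to maltose, aspen came next and pine was nearest to straw. Taken relative to each column's own median, the higher genes stood at -0.51, 0.48, 0.59, 1.21 and 2.18 in that order, and the lower genes at -0.04, -0.62, -1.08, -1.53 and -2.16. The 538 genes within 2-fold had medians from 8.56 on straw to 8.95 on pine. On maltose the quartile ranges of the higher and the lower genes overlapped almost wholly, at 5.92 to 9.64 and 6.23 to 9.89. On straw they did not overlap, at 8.97 to 12.13 and 4.36 to 8.17. The maltose and the straw values both helped to choose the genes, so neither comparison of quartile ranges is a separate observation. On pine the quartile ranges of the 2 groups met only between 8.19 and 8.99.

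The genes furthest above maltose had another order. For the 30 genes at least 32-fold higher on straw, the median level was 5.72 on maltose and 12.27 on straw. It was 10.40 on cellulose, 9.57 on aspen and 9.38 on pine, so cellulose stood above both woods. These 30 genes held 0.111% of the maltose sum, 7.87% of the straw sum and 4.56% of the cellulose sum, against 2.65% on aspen and 2.05% on pine.

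**Figure D5:**
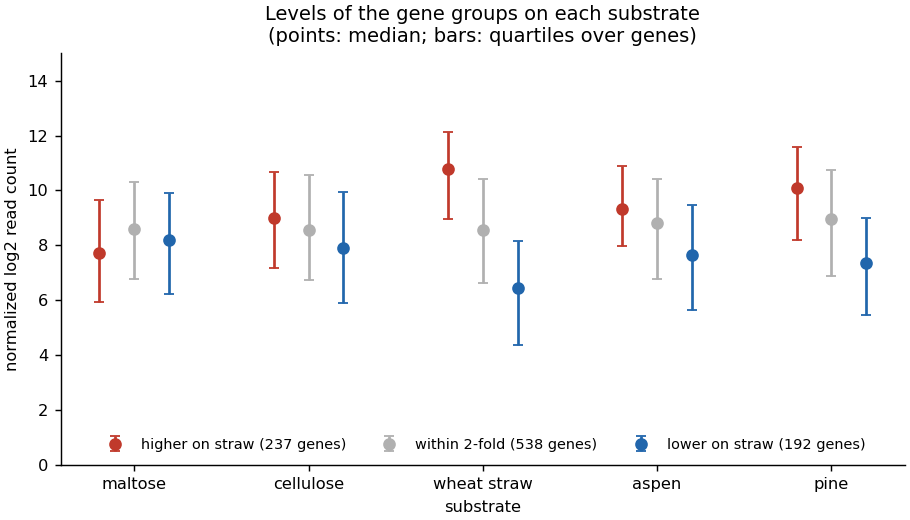
Median normalized log2 read count (points, vertical axis) with the quartiles over genes (bars) on each substrate (horizontal axis), for the 237 genes higher on straw than on maltose, the 538 within 2-fold and the 192 lower. Bars show spread between genes, not between libraries. The higher genes step up from 7.71 on maltose to 10.79 on straw and the lower genes step down from 8.18 to 6.45, with pine nearest to straw in both.

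On the deposited scaling, straw was more often the extreme of the 5 substrates among lower genes than among higher ones. Of the 237 higher genes, straw held the highest value for 132 (55.7%) and pine for 74 (31.2%). Of the 192 lower genes, straw held the lowest value for 164 (85.4%). This contrast depended on the scaling: the shares were 71.3% and 73.5% with centred columns, 66.3% and 67.4% with quantile normalization, and 65.9% and 71.8% with equal sums. Over all 967 genes, straw was highest for 210 (21.7%) and lowest for 291 (30.1%). Pine was highest for 326 of them (33.7%), so its share among the higher genes was near its share over all genes. The straw value is part of the difference that chose the higher and lower genes. The larger shares of straw among them are thus in part built in. Of the 967 genes, 40 stood on straw at least 2-fold above each other substrate, and 53 at least 2-fold below each of them. By definition the former are all among the higher genes and the latter among the lower. Both counts are for the deposited scaling.

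Higher and lower genes were spread unevenly over expression level. All genes were divided by their mean over the 5 substrates into classes of 322, 322 and 323 genes. That mean includes the straw value, so a gene raised on straw also moves up in level, and the counts are a description. In the lowest class 53 genes (16.5%) were higher and 94 (29.2%) lower. With 8 added to the linear values, 43 genes of that class were higher and 63 lower. In the middle class 84 (26.1%) were higher and 59 (18.3%) lower, and in the top class 100 (31.0%) and 39 (12.1%). The median differences in the 3 classes were -0.40, 0.16 and 0.36. With quantile normalization they were -0.33, -0.32 and -0.35, so the trend with level was not present on that scaling. It was present with centred columns and with equal sums, where the medians went from -0.79 to -0.03 and from -0.81 to -0.05.

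The 2-fold limit fell within a continuous range of values. Just inside it were genes 1550144 (5.92 on maltose, 6.93 on straw) and 342154 (11.37 and 12.38), with differences of 1.01 each. Just outside were 1535370 (4.92 and 5.91) and 1477862 (12.20 and 13.19), at 0.99 each. Among lower genes, 1589175 (5.04 and 4.04) and 1537868 (4.15 and 3.15) lay just inside. Gene 9551 (9.22 and 8.22) and gene 1440015 (7.96 and 6.98) lay just outside.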

How the data were processed

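Messenger RNA was sequenced from mycelium as paired ends after selection of polyadenylated RNA, per the labels' protocols. For each gene the authors deposited log2 values of normalized read counts, 1 for each substrate, per the file headers. The submitters' processing notes list TopHat2, HTSeq and DESeq (version 1.5) but not what each did. How libraries were combined, what was added before the logarithm and which genome build and annotation served are details not given in the sources used here. The depth of each library is unknown, and no interval or p-value is given.

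Of 1000 rows, 23 identical repeats were dropped. Genes reaching 10 normalized counts on 2 of the 5 substrates were kept, which removed 10. A gene was called higher or lower at a log2 difference of at least 1 (2-fold). Limma had been planned only in case of values per library. Named genes were the 10 largest differences in each direction, the 5 largest with 8 added, the 10 most abundant on each substrate, the 2 genes on each side of each 2-fold limit and the 3 closest to 0 among the 50 most abundant. Members, lists and limits were chosen with earlier results of these data known. Counting was tested on simulated data. Python 3.11.15, numpy 2.4.6, pandas 2.3.3 and scipy 1.17.1 were used. The 9 alternatives are given in the closing section.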

Additional observations from a re-analysis of the deposited data

How the results depend on the processing

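Of the 46 named genes, 34 lay past 2-fold. Of these, 28 did so in every alternative that kept them, and none of the 34 changed sign. The filter in all 5 columns kept only 36 of the 46. It dropped 5 of the 10 largest positive differences, which had maltose values under 10 normalized counts. It also dropped 4 of the 10 largest negative ones, with straw values under 10. Many named genes were chosen for the size of their difference, so staying past 2-fold is in part built in. The 2-fold counts and the 4-fold count of higher genes stayed within 1.5 times the reported ones under no filter, a filter in all 5 columns, a filter in straw or maltose, 8 added, the 3 scalings named below, differences centred on their median, and repeated rows kept. The 4-fold count of lower genes was 52 as reported, 86 with centred columns and 89 with equal column sums. The median difference of 0.09 became -0.33 with quantile normalization, -0.30 with centred columns and -0.32 with equal sums, so its sign depended on the scaling. Centred columns and equal sums move every difference by a constant, -0.39 and -0.41, whereas quantile normalization does not. The majority at 2-fold turned to lower genes under those 3 scalings. The share of the 10 most abundant genes was 28.4% on maltose and 16.8% on straw. The leading gene alone held 9.76% and 2.33%, the 50 leading genes 54.2% and 46.1%, and the 5 leading genes on straw 10.2%. Counts by class of level stayed within 1.5 times when the classes were made from straw and maltose alone. Those classes too were formed from values that enter the difference. No paired analysis was possible because the table has 1 value per substrate and none per library, and for the same reason no replicate could be left out. Depth is unknown, so differences resting on values near 1 normalized count are the least certain in size.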

Other observations

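Genes with consecutive ID numbers were compared after their values were seen. The table holds 16 such pairs, and the sources used here do not say what the numbering stands for. Both genes were at least 2-fold higher on straw than on maltose in 2 pairs, both at least 2-fold lower in 3, and 1 was higher and the other lower in 2. In 5 pairs 1 gene lay within 2-fold, and in 4 both did. Over all genes 24.5% were higher and 19.9% lower, so these few pairs show no more than their values. The lower pairs were 1596132 with 1596133, 1592002 with 1592003, and 1598880 with 1598881. Gene 1592002 was at 11.77 on maltose and 9.63 on straw, beside 1592003 at 13.16 and 8.42. Gene 1596134, the next number after 1596133, was higher on straw, at 9.39 against 8.25. Gene 1578897, beside 1578898 with its difference of 8.26, was higher by 1.31.

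The summed linear values of the 967 genes were 1.33 times as high on straw as on maltose, and 1.47 times as high without gene 1596132. How the authors' normalization treated the genes outside the table was not analysed here.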
